A study of Rattus norvegicus with 4 samples.

Results

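Receptors for neurotransmitters were read on oligonucleotide arrays of G and MAT-LyLu, 2 sublines of the Dunning R3327 rat prostate tumour, with 2 arrays per line. G, the control of the design, is labelled non-metastatic, and MAT-LyLu highly metastatic; no treatment, passage or culture details are given. Members were the probe sets with 1 annotated gene whose symbol starts with Chrn, Chrm, Gabr, Gria, Grik, Grin, Grm, Glr, Htr, Drd, Adra, Adrb or P2r. The rule found 150 of 7006 single-gene probe sets, or 100 of 4736 genes, and 148 of the probe sets read 99 receptor genes. The other 2 read Grina, which carries the NMDA receptor prefix but encodes a membrane protein of the Bax inhibitor family, and they are counted apart.

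Neurotransmitter receptors are of 2 kinds. Ligand-gated channels (nicotinic, GABA-A, glycine, AMPA, kainate, NMDA, serotonin type 3 and P2X) open an ion pore when the transmitter binds and are assembled from several subunits, so a single subunit transcript need not mean a working channel. The others (muscarinic, metabotropic glutamate, most serotonin, dopamine, adrenergic and P2Y) act through G proteins. In the prostate, acetylcholine and noradrenaline from autonomic nerves drive secretion and muscle tone, and extracellular ATP acts on P2 receptors of epithelial and stromal cells.

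Most receptor probe sets differed little between the lines, and 4 receptor genes had a difference that passed the test in every alternative that tested it. Chrna7, the alpha7 nicotinic subunit that forms a calcium-permeable channel by itself, was 5.49-fold lower in MAT-LyLu on 1 of its 3 probe sets. Another of its probe sets passed in the opposite direction, 1.27-fold higher. P2rx4, an ATP-gated channel, was 1.65-fold lower. P2ry2, a G protein-coupled receptor for ATP and UTP, was at least 1.49-fold higher. Grin1, the obligatory subunit of NMDA receptors, was 1.56-fold higher on 1 of its 4 probe sets. Grina was lower on both of its probe sets. Each array read RNA pooled over many cells, so fewer expressing cells and less RNA per cell cannot be told apart.

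The start regions of Chrna7, P2ry2 and P2rx4 are shown because these genes had the largest fitted log2 differences among the tested receptors, 1 up and 2 down. They come from RefSeq on GRCr8, each 300 bases long, from 250 bases before to 50 after the annotated start, 5′ to 3′ on the gene's strand. Capitals mark the GC box GGGCGG and the E-box CACGTG, searched on both strands (the reverse of the GC box is CCGCCC).
Chrna7, chr1:126249080-126249379, minus strand: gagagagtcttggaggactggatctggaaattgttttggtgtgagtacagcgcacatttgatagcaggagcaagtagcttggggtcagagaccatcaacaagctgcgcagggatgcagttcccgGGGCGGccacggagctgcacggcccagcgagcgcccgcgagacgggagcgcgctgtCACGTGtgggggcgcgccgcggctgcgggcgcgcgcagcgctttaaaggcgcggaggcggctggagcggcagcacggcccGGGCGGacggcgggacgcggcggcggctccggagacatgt
P2ry2, chr1:164779439-164779738, minus strand: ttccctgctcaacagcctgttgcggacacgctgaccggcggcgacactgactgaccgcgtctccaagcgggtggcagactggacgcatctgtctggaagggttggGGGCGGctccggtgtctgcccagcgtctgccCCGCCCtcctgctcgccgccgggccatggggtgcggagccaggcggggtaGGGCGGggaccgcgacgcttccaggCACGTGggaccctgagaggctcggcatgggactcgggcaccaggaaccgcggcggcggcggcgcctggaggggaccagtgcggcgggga
P2rx4, chr12:39523040-39523339, minus strand: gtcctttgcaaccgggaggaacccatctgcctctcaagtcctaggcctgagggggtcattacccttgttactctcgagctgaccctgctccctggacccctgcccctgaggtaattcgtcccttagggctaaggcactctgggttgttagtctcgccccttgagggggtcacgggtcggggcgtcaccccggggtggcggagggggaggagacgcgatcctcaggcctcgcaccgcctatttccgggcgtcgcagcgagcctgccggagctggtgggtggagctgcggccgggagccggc
The Chrna7 window held 2 GC boxes and 1 E-box, that of P2ry2 3 and 1, and that of P2rx4 none of either. Of all 33469 RefSeq promoters of this length, 33.1% held the GC box and 6.42% the E-box. A start region was matched for 74 of the 99 receptor genes, of which 33 held the GC box and 3 the E-box. The windows of Chrna7, P2ry2 and P2rx4 held 37, 33 and 21 CG dinucleotides, against a median of 11.5 over the matched receptor genes and 7 over all promoters. These matches describe the letters only, since the arrays did not measure the promoters.

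A level for signal without target was taken from 23 control probe sets for bacterial, yeast and mouse transcripts that carry no rat gene. On each array the level was the 95th percentile of these controls, at 1973 and 2143 signal units on the G arrays and 1891 and 2311 on the MAT-LyLu arrays. A probe set was counted as above it in a line only when both arrays were. Of the 148 receptor probe sets, 80 (54.1%) were above the level in G and 73 (49.3%) in MAT-LyLu, where 62.4% and 59.6% of all 8740 probe sets were. In both lines 71 probe sets of 56 genes were above it, beside 4957 of all 8740 probe sets. On no array of either line were 59 receptor probe sets above it, beside 2628 of all 8740. Another 7 were above it on some arrays without reaching both arrays of a line, beside 408 of all.

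The 11 probe sets above the level in 1 line only mostly lay next to it. Of all 8740 probe sets, 498 were above it in G alone and 249 in MAT-LyLu alone. The 9 above it in G alone read Gabra3, P2rx2, Chrna2, Chrna3, Chrna4, Chrnb2, Htr1b, Htr2c and Htr5b, and none passed the test of the difference. Chrnb2, the commonest beta subunit of neuronal nicotinic receptors, is an example, at 2726 and 2386 in G against 2527 and 2261 in MAT-LyLu. Just inside the level in G was Chrna4, at 1.03 times the level on its lower array, and just outside was P2rx5 at 0.966 times. In MAT-LyLu the same limit ran between a Chrna7 probe set (L31619_g_at) at 1.00 times and Chrna2 at 0.985 times. The 2 probe sets above it in MAT-LyLu alone read Gria2 and P2ry2, and only P2ry2 passed the test.

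**Figure D1:**
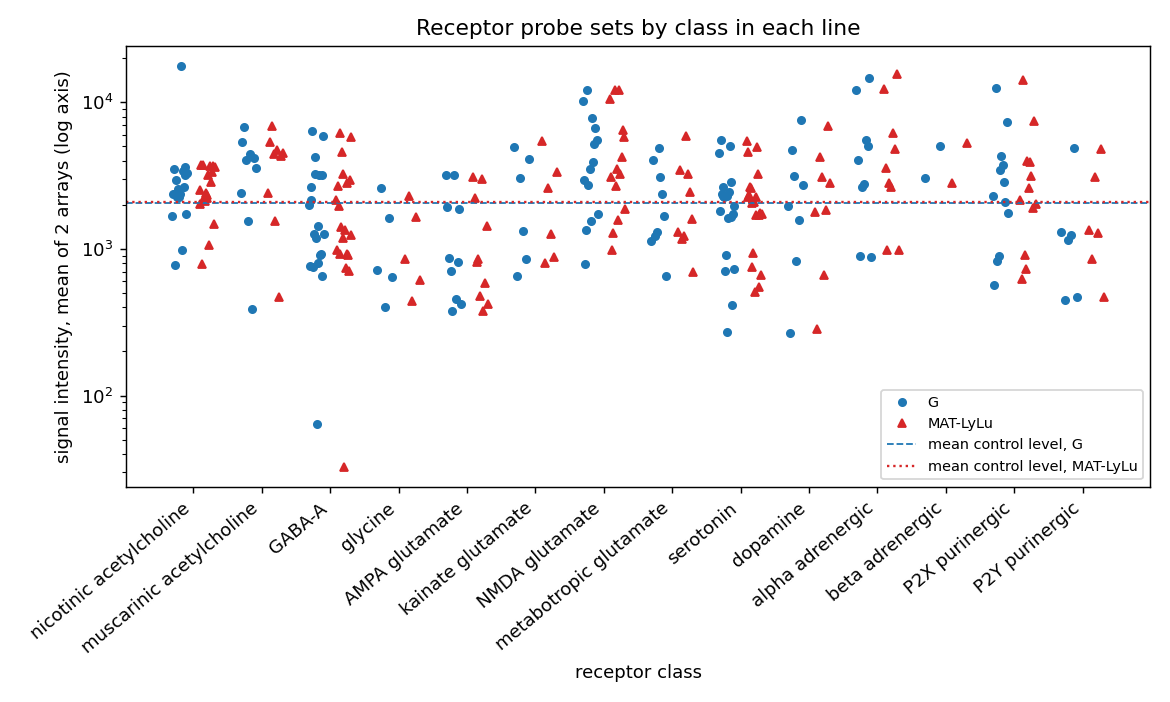
Each point is a receptor probe set, with its mean signal over the 2 arrays of a line on a log axis (G, blue circles; MAT-LyLu, red triangles), grouped by receptor class. The dashed and dotted lines are the mean control level of each line. Most points lie close together in both lines; among those that move are a nicotinic point (Chrna7) near 17711 in G and 3213 in MAT-LyLu, a P2Y point (P2ry2) from 1143 to 3073, which crosses the level, and an NMDA point (Grin1) from 7792 to 12193.

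By class, muscarinic, NMDA, adrenergic and nicotinic receptors had most of their probe sets above the controls in both lines, the nicotinic ones with 10 of 18. Of all 8740 probe sets, 62.4% were above the level in G and 59.6% in MAT-LyLu. In both lines 4957 of the 8740 were above it, a share close to that of the nicotinic probe sets. Of all 4736 genes, 3335 had a probe set above it in G and 3232 in MAT-LyLu. All 5 muscarinic genes (7 of 9 probe sets), all 6 NMDA genes (10 of 14 probe sets), 5 of 6 alpha adrenergic genes and both beta adrenergic genes had a probe set above the level in G and in MAT-LyLu. Adra1a, an alpha1 receptor known from prostate smooth muscle, read 5204 and 4945 in G and 4840 and 4713 in MAT-LyLu. Chrm3, the muscarinic receptor that drives gland secretion, read 5461 and 5250 against 5176 and 5607 on its _s_at probe set. For Adrb1, the beta receptor best known from the heart, the arrays read 3210 and 2897 against 3032 and 2565. The lines overlapped for Chrm3 and Adrb1 and not for Adra1a, and none of the 3 passed the test. Adra1b, Adra2b, Adrb3, Chrm2 and Chrm5 were also above the level on all 4 arrays. Adrb3, the beta receptor of fat cells, read 5206 and 4924 in G and 5080 and 5471 in MAT-LyLu. Chrm2, the muscarinic receptor that slows the heart, read 4123 and 3912 against 4078 and 4852 on the brighter of its probe sets. The lines overlapped for each of these 5 genes.

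Of the 20 GABA-A probe sets 8 were above the level in G and 7 in MAT-LyLu, and of the 10 AMPA probe sets 2 and 3, where 62.4% and 59.6% of all probe sets were; the classes were not tested against each other. Of 15 GABA-A genes, Gabra2, Gabra4, Gabrb1, Gabrd, Gabrg1 and Gabrr1 had a probe set above it in both lines, and 7 had none on any array (Gabra5, Gabra6, Gabrb2, Gabre, Gabrg3, Gabrp and Gabrr3). Gabrr1, a rho subunit first known from the retina, read 5822 and 6028 in G and 5715 and 5922 in MAT-LyLu. Of the 3 glycine receptor genes only Glra1 was above the level, and of the 4 AMPA genes only Gria1 was above it in both lines. Grik3, Grik4 and Grik5 of the 5 kainate genes and Grm2, Grm3, Grm4 and Grm6 of the 7 metabotropic genes were above it in both. Among 15 nicotinic genes this held for Chrna1, Chrna5, Chrna7, Chrnb1, Chrnb4, Chrne and Chrng, and among 13 serotonin genes for Htr1a, Htr1f, Htr3a, Htr4, Htr5a and Htr6. Drd2, Drd3, Drd4 and Drd5 were above it and Drd1 was not. Of the P2X genes, P2rx1, P2rx2, P2rx3, P2rx4 and P2rx6 were above it in both lines, and of the 6 P2Y genes P2ry4 alone.

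A signal above the controls did not always carry over to the other probe sets of the same gene. Of 33 receptor genes with 2 or more probe sets, 13 had a probe set above the level on all 4 arrays and another above it on none. The matching share over all genes with 2 or more probe sets was not computed, so the count is not particular to receptors. These were Adra1d, Chrm1, Chrm4, Drd3, Gabra4, Glra1, Grik4, Grin1, Grin2a, Grin3a, Htr3a, Htr4 and P2rx2. For Adra1d, an alpha1 receptor, the probe set AF071014mRNA_s_at read 12332, 11910, 11747 and 12903 (the G arrays first), while M60654_at read 846, 951, 891 and 1075. P2rx2, an ATP-gated channel of sensory neurons, had 6 probe sets, of which 2 were above the level on all 4 arrays and 3 on none. The ending _s_at, on 41 of the 148 probe sets, marks probes that can match related transcripts.

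Signals above the controls were also read for genes that define other cell types. The share over all genes was high as well: 3335 of 4736 genes had a probe set above the level in G and 3232 in MAT-LyLu. Of 14 neuron markers on the array, 10 were above the level in G and in MAT-LyLu, and the summed signal of the 14 ran from 51064 to 51441 on the G arrays and from 49663 to 52057 on the MAT-LyLu arrays. Of 7 glial markers 6 were above it in both lines, and their sum was 34427 to 36199 in G and 22051 to 22748 in MAT-LyLu. Skeletal muscle markers were above it for 5 of 11 genes in both lines, endothelial markers for 2 of 5, and leukocyte markers for 6 (G) and 7 (MAT-LyLu) of 10. The part of such signals in the receptor levels was not tested. Of 9 epithelial markers, 4 were above it in G and 5 in MAT-LyLu, and their sum was 25670 to 27289 in G and 65191 to 66047 in MAT-LyLu. Of 8 fibroblast markers, 8 and 3 were above it, and their sum was 192938 to 207289 in G and 68635 to 74061 in MAT-LyLu. In the test described next, 6 of these 8 fibroblast markers were lower and 1 higher in MAT-LyLu (median log2 difference -3.73). Of the 7 epithelial markers tested, 1 was higher, 1 lower and 5 did not pass (median log2 difference 0.004). The higher epithelial sum was therefore not shared by most of that list. The part of these shifts in the receptor differences was not tested. Of 4 secretory prostate markers, 1 (Spink1) was above the level in each line.

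The test of MAT-LyLu against G ran on log2(signal + 16) over 6555 probe sets, after the 25% with the lowest mean were left out. It kept 100 of the 148 receptor probe sets (75 genes) and left out 48. At an adjusted p under 0.05 (limma), 9 of the 100 passed, 3 of them higher and 6 lower in MAT-LyLu, where 34.1% of all tested probe sets were called (13.9% higher and 20.3% lower). The remaining 91 did not pass, with log2 differences of at most 0.33 in size. On the fitted scale a 2-fold difference was reached by 2 of the 100, against 8.97% of all. The arrays of the lines did not overlap for 49 of the 100, against 67.7% of all. The median log2 difference was 0.01 for receptors and -0.03 for all probe sets, and its median size 0.10 and 0.19. Between arrays of different lines the SD of the log2 difference over the 100 was 0.31 to 0.38. It was 0.16 between the G arrays and 0.12 between the MAT-LyLu arrays. Over all tested probe sets these SDs were 0.75 to 0.76, 0.18 and 0.17. The 100 include Chrna7 (S53987_at) and P2ry2, the 2 probe sets with a fitted 2-fold difference. The SD between the lines was not computed without them. P2ry2 was under the control level on both G arrays, so its fold is only a bound of at least 1.49. The counts of 3 higher and 6 lower turned to 7 and 2 with quantile normalization and to 6 and 2 with median scaling. With no intensity trend they were 4 and 4, and with dim values raised to the control level 4 and 5. They also moved when single arrays were left out, so the balance of directions depends on the settings and the arrays used. Over all tested probe sets, 908 higher and 1330 lower turned to 1131 and 1177 with quantile normalization and to 1112 and 1174 with median scaling.

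**Figure D2:**
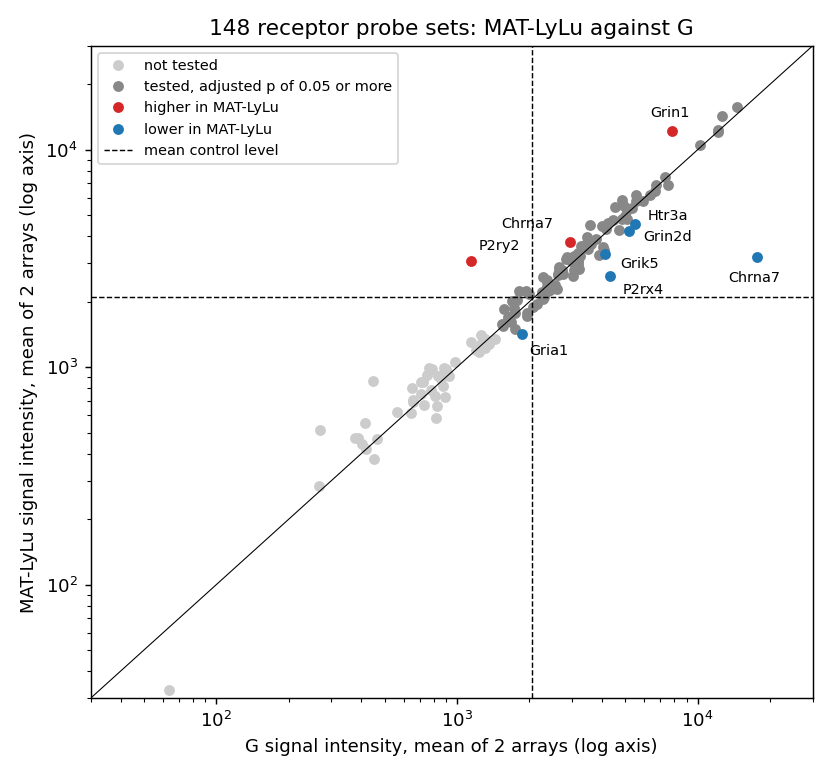
Each point is 1 of the 148 receptor probe sets, with its mean signal in G on the horizontal and in MAT-LyLu on the vertical axis (both log axes, 2 arrays each); colours give the test result and dashed lines the mean control level. Most points follow the line of equal signal, and the blue Chrna7 point and P2ry2 lie farthest from it among tested probe sets.

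Among nicotinic subunits, Chrna7 gave opposite results on its probe sets. S53987_at read 16282 and 19139 on the G arrays and 3473 and 2954 on the MAT-LyLu arrays. Both G arrays lay far above both MAT-LyLu arrays, and all 4 were above the control level (17711 ± 2021 against 3213 ± 367, mean ± SD, 2 arrays each). The log2 difference was -2.46 (SE 0.12, adjusted p = 2.1e-06 in limma), and it ran from -2.57 to -2.34 over the 13 alternatives, which all passed. On L31619_at the direction was the other way, at 3064 and 2838 in G against 3538 and 3959 in MAT-LyLu (log2 difference 0.34, SE 0.09, adjusted p = 0.025). Leaving out G replicate 1 (adjusted p = 0.090) or MAT-LyLu replicate 1 (0.15) ended that call. The third probe set, L31619_g_at, overlapped between the lines, at 2245 and 2538 against 2162 and 2312. The fall of Chrna7 therefore stands on 1 of 3 probe sets. Of the other 13 nicotinic probe sets tested, none passed. Chrnb3, at 1718 and 1657 in G against 2022 and 2018 in MAT-LyLu, was closest (adjusted p = 0.058). It was above the control level on no G array and on 1 MAT-LyLu array. Chrnb3 passed with quantile normalization (adjusted p = 0.028), median scaling (0.025) and no intensity trend (0.048). Chrna1, Chrnb1, Chrne and Chrng, subunits of the muscle receptor, were above the level in both lines without passing. Chrnd, its delta subunit, was above the level on no array, at 1656 and 1821 in G against 1497 and 1486 in MAT-LyLu.

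Receptors for extracellular nucleotides gave 1 fall and 1 rise. P2rx4 read 4246 and 4406 in G and 2589 and 2655 in MAT-LyLu. The lines did not overlap and all 4 arrays were above the control level (log2 difference -0.72, SE 0.08, adjusted p = 0.00029). The value stayed between -0.75 and -0.67 in the 13 alternatives, which all passed. P2ry2 read 1248 and 1038 in G, under the control level, and 3298 and 2847 in MAT-LyLu, above it. The fitted log2 difference was 1.42 (SE 0.12, adjusted p = 7.0e-05), and against the control level of the G arrays the rise was at least 1.49-fold. With dim values raised to the level it was 0.57 and passed, as it did in each of the 12 alternatives that tested it. P2ry1, a receptor for ADP, read 476 and 420 in G and 884 and 835 in MAT-LyLu, under the control level on all 4 arrays, so the lines have no measured order there. P2rx7, the large-pore ATP receptor of immune cells, read 1866 and 1673 against 1894 and 2162, close to the level, and did not pass (adjusted p = 0.22). None of the other 7 P2X probe sets tested passed, nor did P2ry4, at 5019 and 4694 against 4781 and 4838.

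**Figure D3:**
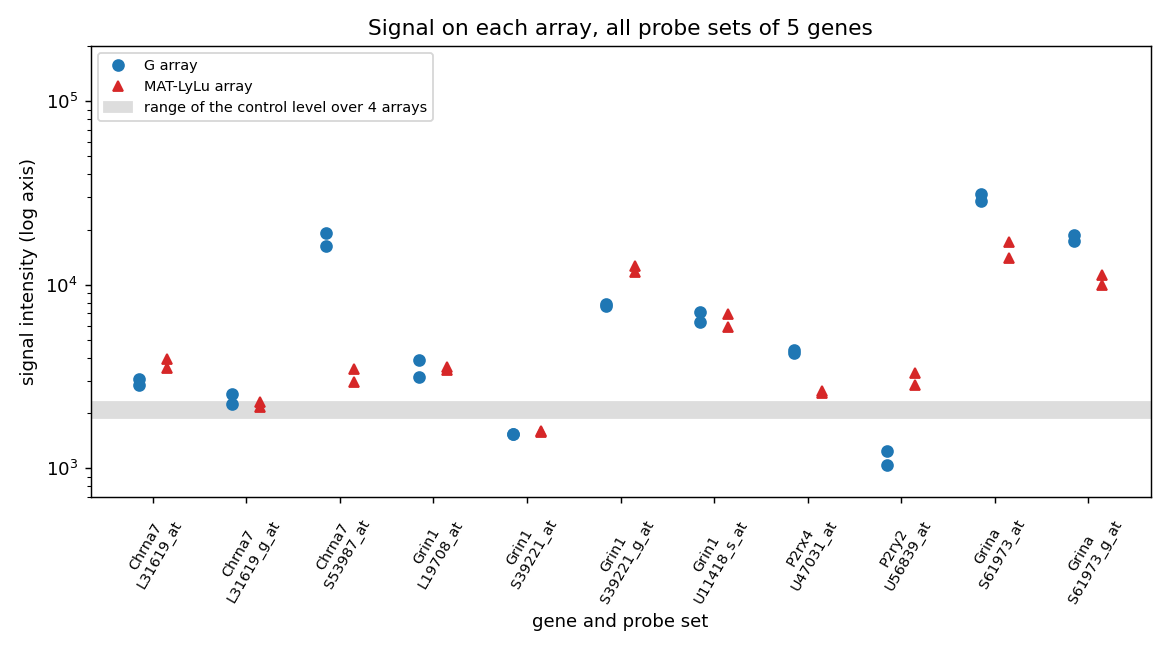
Signal on each of the 4 arrays (log axis; G, blue circles; MAT-LyLu, red triangles) for all probe sets of Chrna7, Grin1, P2rx4, P2ry2 and Grina, with the range of the control level over the arrays as a grey band from 1891 to 2311. A single probe set of Chrna7 and of Grin1 separates the lines widely while the others lie closer together, and P2ry2 crosses the band.

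Among NMDA receptor genes the probe sets of Grin1 differed. S39221_g_at read 7901 and 7683 in G and 12668 and 11717 in MAT-LyLu, with no overlap (log2 difference 0.64, SE 0.09, adjusted p = 0.00081), and all 13 alternatives passed. S39221_at, named for the same sequence entry, was under the control level on all 4 arrays, at 1544 and 1543 against 1572 and 1596. U11418_s_at overlapped at 7087 and 6260 against 5928 and 6933, and so did L19708_at at 3882 and 3128 against 3422 and 3570. Neither passed, with adjusted p = 0.74 and 0.98. Grin2d, a modulatory subunit, was lower on 1 of 2 probe sets, from 5047 and 5298 to 4024 and 4474 (log2 difference -0.28, SE 0.09, adjusted p = 0.042); the call was lost in 6 of 13 alternatives, among them quantile normalization (0.12) and median scaling (0.085). Its other probe set read 2707 and 2726 against 2721 and 2698. Grin2a, Grin2b, Grin2c and Grin3a did not pass. Of these, Grin2c passed on U08259_r_at with the replicate block (log2 difference -0.25, adjusted p = 0.046, against 0.085 as fitted) and without G replicate 1 (0.036). Grina, no receptor subunit, fell on both probe sets. S61973_at read 31107 and 28695 in G and 14076 and 17190 in MAT-LyLu (1.92-fold, adjusted p = 0.00066). S61973_g_at fell 1.70-fold (18014 ± 1106 against 10620 ± 939, adjusted p = 0.00079). Both passed in all 13 alternatives.

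The other 3 calls were small. Grik5, a kainate receptor subunit that needs a partner to form a channel, read 4207 and 4065 in G and 3527 and 3126 in MAT-LyLu (log2 difference -0.32, SE 0.09, adjusted p = 0.031). Htr3a, the subunit that forms the serotonin-gated channel, read 5499 and 5495 against 4790 and 4354 on D49395_s_at (-0.27, SE 0.09, adjusted p = 0.046). Its U01227_s_at probe set had the opposite order, at 2840 and 2870 against 3270 and 3182, and did not pass (0.14). Gria1, an AMPA receptor subunit, read 2032 and 1705 against 1534 and 1315 on X17184_at (adjusted p = 0.047), with 1 of the 4 arrays above the control level. Its other probe sets, M36418_s_at and S56679_s_at, were above the level on all 4 arrays and did not pass (log2 difference -0.05 and -0.08, adjusted p = 0.70 and 0.54). With dim values raised to the level the log2 difference of X17184_at was 0.0025 and did not pass. Its call was also lost with quantile normalization (adjusted p = 0.073), median scaling (0.058), and without G replicate 0 (0.19) or MAT-LyLu replicate 1 (0.24). Grik5 lost its call in 5 of 13 alternatives, Htr3a in 8 of 13, and both with quantile normalization (adjusted p = 0.053 and 0.10) and median scaling (0.058 and 0.089).

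**Figure D4:**
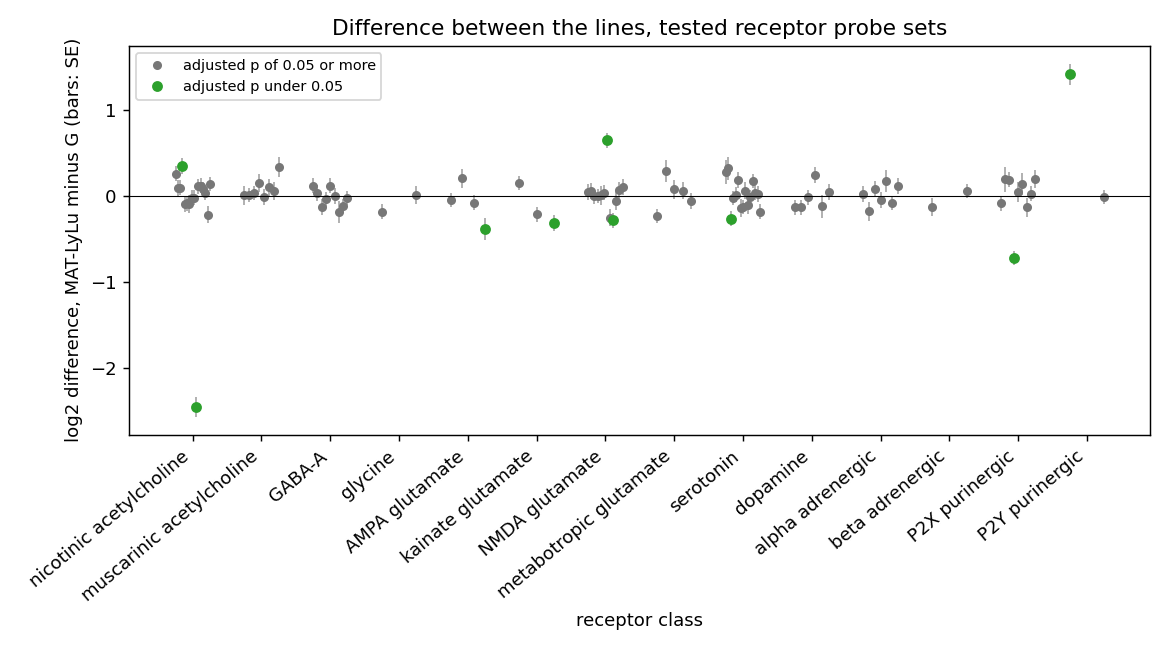
Log2 difference (MAT-LyLu minus G, on log2(signal + 16)) of the 100 tested receptor probe sets by class, with the SE of the fit as bars. Green points passed at an adjusted p under 0.05; muscarinic, GABA-A, glycine, metabotropic, dopamine and adrenergic probe sets differ by at most 0.33 and none passed.

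Some bright probe sets without a call had close values in both lines. For Adra2a, the alpha2 receptor that restrains transmitter release, U79031_at read 15119 and 14006 in G and 15522 and 15917 in MAT-LyLu. Grin2c, an NMDA subunit of cerebellar granule cells, read 11937 and 12246 against 11741 and 12385 on D13212_s_at. P2rx2 read 14595 and 10652 against 13940 and 14615 on AF020758_at, so its G arrays differed by more than the lines. Chrm1, a muscarinic receptor of brain and glands, read 6903 and 6575 against 6827 and 6963. Drd3, a dopamine receptor of limbic brain regions, read 6580 and 8511 against 6441 and 7360, and Htr6, a serotonin receptor of the brain, 4971 and 5035 against 4983 and 4967. Adra2a was the only one of these 6 whose arrays did not overlap, and none passed. Grm4 and Htr4 (AJ011370_at) were less close, higher in MAT-LyLu by log2 differences of 0.29 and 0.28, and did not pass either. The Adra2a probe set passed with quantile normalization (adjusted p = 0.046), and that of P2rx2 without G replicate 0 (0.011). Chrm4 came closest to the threshold among the muscarinic genes, at 3928 and 3207 in G against 4188 and 4785 in MAT-LyLu (log2 difference 0.33, adjusted p = 0.067). It passed with quantile normalization (0.048), median scaling (0.025), dim values raised to the level (0.031), and without G replicate 0 (0.013) or MAT-LyLu replicate 0 (0.048).

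The genes that make, clear and relay the transmitters were read from 3 lists, with the brightest probe set for each gene. The shares over all set beside them count every tested probe set, so the units differ. Other probe sets of the listed genes are not given here. Of 24 genes tested for synthesis, breakdown and transport of transmitters, 2 fell, none rose and 22 did not pass, where 34.1% of all tested probe sets were called (13.9% higher and 20.3% lower). Maoa, the monoamine oxidase that degrades serotonin and noradrenaline, fell 2.55-fold (17629 ± 1190 against 6896 ± 465, adjusted p = 2.4e-05), and Ache, acetylcholinesterase, fell 1.26-fold (adjusted p = 0.025). Of 14 scaffold and anchoring genes tested, 6 fell, 1 rose and 7 did not pass, against the same 20.3% lower and 13.9% higher over all. That split over all moves with the scaling, at 1177 lower and 1131 higher with quantile normalization. The lists were not recounted under other settings. Cnih2, an auxiliary protein of AMPA receptors, fell 2.34-fold, Gabarap, first found as a GABA-A receptor partner and acting in autophagy, 2.12-fold, and Homer1, which links metabotropic receptors to calcium stores, 1.46-fold with 1 of 2 MAT-LyLu arrays above the level. The rise was Grip1, a PDZ protein that binds AMPA receptors, from 177 ± 14.5 to 4514 ± 400, at least 2.18-fold (adjusted p = 1.1e-07).

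Of 35 tested genes of G proteins, receptor kinases, arrestins, RGS proteins, adenylyl cyclases and phospholipases C, 5 rose, 4 fell and 26 did not pass, which makes 9 calls of 35 beside the 34.1% called over all. Gnb4, a G protein beta subunit, rose at least 2.77-fold (1696 ± 16.7 against 5736 ± 172). Grk2, the kinase that desensitises beta adrenergic receptors, rose 1.49-fold, and Plcb4, a phospholipase C driven by Gq, 1.41-fold. Adcy6, an adenylyl cyclase, fell 1.39-fold from 11760 ± 599 to 8422 ± 173. The median log2 difference was 0.03 for the transmitter list, -0.15 for the scaffold list and -0.03 for the G protein list, against -0.03 for all tested probe sets.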

How the data were processed

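Total RNA of 2 G and 2 MAT-LyLu samples was labelled as biotinylated cRNA and read on 1 array each. The authors deposited 1 table of signal intensities, 1 column per array; MAS5 is named per the submitters' processing notes, and the sources used here give no version, scaling target or filter for it. Array medians ran from 2998 to 3156, and signals were used as deposited. Lines and replicate numbers came from the titles. Nothing names separate cultures, so p-values measure the spread between these samples, which may be technical.

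Of 8799 probe sets, 59 were controls. Genes came from the platform annotation, and their symbols were checked by gene identifier against RefSeq on GRCr8. For the array no genome build is named, and the coordinates printed are those of the RefSeq windows on GRCr8. The control level used 23 control probe sets; the hybridisation controls BioB, BioC, BioDn and CreX, spiked in at high amounts, and their reverse-strand sets were left out, although the design had not set them apart. Signals were tested as log2(signal + 16) in R 4.3.3 by limma 3.58.1 (eBayes after lmFit, with trend = TRUE; 2-sided), and p-values were adjusted by Benjamini-Hochberg over the 6555 probe sets tested; every adjusted p comes from this test. The fit was tested on simulated data. A permutation of 2 arrays against 2 cannot go below p = 0.333. Folds are 2 to the power of the fitted log2 difference. Where both arrays of the dimmer line were under the control level the fold is a bound, with dim values raised to that level.

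Named were all members above the control level in a line or past the threshold, the rest by name or count, and up to 4 genes per companion list with the smallest p. Members, lists and rules were chosen with earlier results of these data known. Other settings tried were a pseudocount of 1 or 64, no filter or one on the lower 50%, median or quantile scaling, a flat variance prior, a replicate block, leaving out single arrays, and raising dim values to the control level.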

Additional observations from a re-analysis of the deposited data

How the results depend on the processing

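Counts of receptor probe sets called were small and moved with the settings. Of 3 higher and 6 lower, quantile normalization gave 7 and 2 and median scaling 6 and 2. Without a filter 5 were higher and 6 lower. The added calls were P2ry1 and Htr2a, higher, and Gria4 (S94371_g_at, log2 difference -0.47, adjusted p = 0.018), lower, all under the control level on all 4 arrays, while Htr3a lost its call (0.053). Leaving out 1 array gave 2 to 8 higher and 2 to 4 lower, the extremes of the higher calls being without MAT-LyLu replicate 1 (2) and without G replicate 0 (8). The calls gained without G replicate 0 were on P2rx2, Htr4, Grm4, Adra2a (S79778mRNA_s_at) and Chrm4, and without G replicate 1 on Htr4 and Grin2c; Drd1 was gained with quantile normalization and median scaling, under the control level on all 4 arrays. A lone array was assumed to vary like the other line. Both Grina probe sets and the calls of Chrna7 (S53987_at), P2rx4 and Grin1 passed in all 13 alternatives, and P2ry2 in the 12 that tested it. Gria1 turned to 0.0025 with dim values raised to the control level. The cause was not tested.

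The counts above the control level of 80 in G and 73 in MAT-LyLu became 67 and 53 against the highest control, and 112 and 121 against the median control. The design had not set the spiked hybridisation controls apart, so leaving them out departed from its wording. With them included, as worded, the level rose to between 32243 and 38134 and the counts were 0 and 0. That run was added after seeing the data. For single arrays they were 81 and 84 in G and 73 and 86 in MAT-LyLu.

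With the replicate block, 3 receptor probe sets were higher and 7 lower, and 967 and 1421 of all probe sets, against 908 and 1330 without it. The deviations of same-numbered arrays from their line means correlated at r = 0.16 over 6555 probe sets, which are not independent, and 2 pairs do not establish a pairing. The 2 arrays per line limit the precision, and probe sets near the control level have no firm order.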
